A study of Mus musculus with 8 samples.

Results

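Spiny projection neurons of the mouse striatum are specified and kept by a small set of transcription factors, and 10 of these genes are described here: Bcl11b, Foxp1, Foxp2, Meis2, Zfp503, Mef2c, Ebf1, Isl1, Sp9 and Six3. They were taken by name from a table of 31417 genes, by a rule that uses no measured value, although earlier results of these data were known when the list was made. All 10 passed the filter on low counts that left 16511 genes for testing. The values come from poly(A) RNA sequencing of whole striatum from mice aged 12 months, with 4 wild-type libraries (WT1 to WT4) and 4 libraries of Dclk3 knockout mice (KO1 to KO4). Each library was made from a single striatum. The sources used here do not give the strain, the sex, the Dclk3 allele or whether the deletion covers all cells. The labels also do not state that every striatum came from a different mouse, so the p-values measure the spread between these striata. Dclk3 encodes a doublecortin-like kinase that is abundant in the striatum.

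The striatum consists mostly of GABAergic spiny projection neurons, which fall into a direct-pathway class with the D1 dopamine receptor and an indirect-pathway class with the D2 receptor. Both classes arise from the lateral ganglionic eminence. Bcl11b (also called Ctip2), Foxp1, Foxp2, Meis2, Zfp503 (also called Nolz-1) and Mef2c act in spiny neurons without being restricted to one class. Ebf1 and Isl1 are known for the differentiation of direct-pathway neurons, and Sp9 and Six3 for that of indirect-pathway neurons. Several of these genes have other sources in the tissue, of which only some are named here. Isl1 is also a cholinergic interneuron factor, and Mef2c is also made by cortical neurons, microglia and endothelium. Ebf1 is also made by mural cells of vessels. In RNA of bulk tissue, fewer cells of a type and less RNA per cell cannot be told apart.

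Levels are in CPM, read counts relative to each library's total over the tested genes, with libraries scaled by TMM. Total counts ran from 24441242 to 37145559 per library. Dclk3 itself was at 80.9 to 117 CPM in wild type and 19.6 to 27.7 CPM in the knockout, which is -2.06 ± 0.14 on the log2 scale (SE; adjusted p = 0.000773, edgeR quasi-likelihood test), and no library went against its label. It was also the single gene of 16511 past an adjusted p of 0.05, a call that was lost with no filter on low counts (adjusted p = 0.0647, edgeR). The effector genes of spiny neurons went with the tissue label. Ppp1r1b (DARPP-32) lay at 898 to 1136 CPM and Penk at 714 to 981 CPM in the 8 libraries. The cortical glutamatergic marker Slc17a7 lay at 545 to 1159 CPM, so spiny neuron genes were not the only abundant ones. Replicate 4 of each genotype stood apart in its marker sums. WT4 held 2911 CPM of 6 summed choroid plexus markers against 40.0 to 242 CPM in the other 7 libraries. KO4 had the highest sum of 8 thalamic glutamatergic markers (537 CPM against 193 to 349) and the lowest of 8 cortical glutamatergic markers (737 CPM against 879 to 1456). Results on the 10 factors are therefore also given without WT4 and KO4. These results keep WT2, which had the highest cortical sum (1456 CPM against 737 to 1243 CPM). WT2 also had the lowest sum of 18 spiny effector genes (8984 CPM), and was highest for Bcl11b, Zfp503 and Sp9.

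Per kilobase of annotated exon, Bcl11b, Mef2c and Meis2 were the most abundant factors in wild type, at 26.0 ± 2.59, 25.8 ± 6.11 and 23.7 ± 2.20 CPM per kb (SD, n = 4). Foxp1 followed at 14.4 ± 1.90 CPM per kb, then Six3 at 6.16 ± 1.64 and Foxp2 at 3.35 ± 0.17 CPM per kb. The lower end was made of Isl1 (2.21 ± 0.35), Zfp503 (2.09 ± 0.65), Ebf1 (1.34 ± 0.18) and Sp9 (1.32 ± 0.49 CPM per kb). The 4 most abundant factors thus all belonged to the 6 shared by both spiny classes. Of the 4 tied to 1 class, 3 lay at the lower end with Zfp503. These are levels of whole tissue, in which the part of cortical and other cells was not tested. The wild-type ranges of Bcl11b and Mef2c overlapped, as did those of Mef2c and Meis2, of Isl1 and Zfp503, of Zfp503 and Ebf1, and of Ebf1 and Sp9, so these neighbours did not differ beyond their spread. The ranges of Meis2 and Foxp1, of Foxp1 and Six3, of Six3 and Foxp2, and of Foxp2 and Isl1 did not overlap. The order in the knockout was led by Mef2c, Meis2 and Bcl11b, at 25.5, 24.1 and 23.7 CPM per kb, whose ranges overlapped as well, and Foxp2 and Isl1 overlapped there too. Exon length is the union over all annotated transcripts, which can overstate the length of an mRNA where a gene has several. This is uneven, since Foxp1 and Mef2c have 31 annotated transcripts, Foxp2 20 and Zfp503 1. The order per kilobase depends on these lengths.

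None of the 10 factors passed the test between Dclk3 knockout and wild type, where 0.00606% of all genes did (1 of 16511, Dclk3). None reached an unadjusted p of 0.05, against 3.76% of all genes, and none had genotypes whose ranges did not overlap, against 1.93% of all genes. The log2 fold changes of the 10 ran from -0.16 to 0.19, with 5 above and 5 below 0 and a median of 0.01, beside a median of -0.0011 over all genes. Of all tested genes 49.5% were above 0. The 95% interval lay within a 1.5-fold change either way for 6 factors (Bcl11b, Foxp1, Foxp2, Meis2, Mef2c and Ebf1), and for 77.8% of all genes. For Zfp503, Isl1, Sp9 and Six3 it reached beyond 1.5-fold on at least 1 side. Every adjusted p of the 10 was 0.999 in edgeR, by the quasi-likelihood test and Benjamini-Hochberg adjustment over all genes. DESeq2 and limma-voom also called 0 of the 10.

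**Figure D1:**
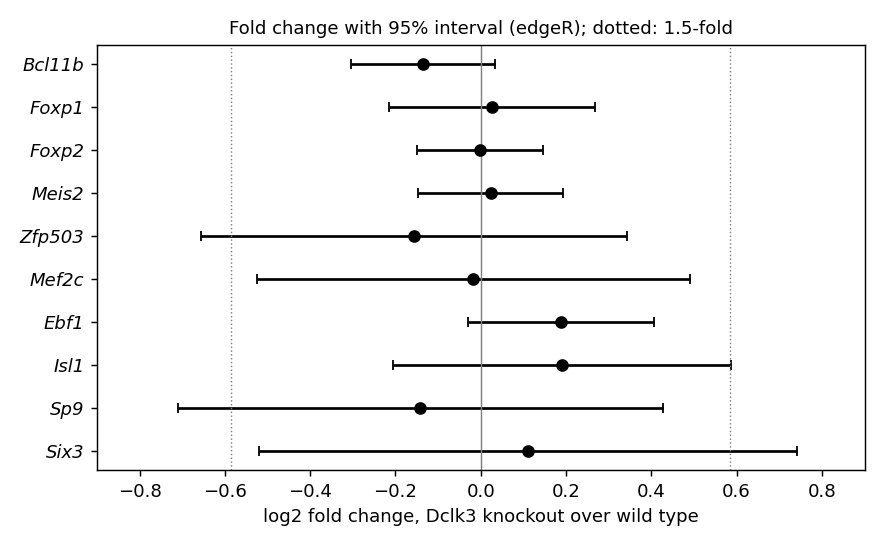
Log2 fold change of each factor in the Dclk3 knockout over wild type, from edgeR, with bars for the 95% interval and dotted lines at 1.5-fold. All 10 intervals cross 0, and the widest are those of Six3 (-0.52 to 0.74) and Sp9 (-0.71 to 0.43).

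Bcl11b, a zinc-finger factor required for spiny neuron maturation, lies on the minus strand of chr12:107910403-108003602 (GRCm38, as are all positions here). Its levels were 227.6, 230.0, 187.9 and 198.6 CPM in WT1 to WT4 and 210.4, 191.4, 185.8 and 181.1 CPM in KO1 to KO4. The highest pair of libraries was wild type and the lowest knockout, but KO1 lay above WT3 and WT4. In log2, knockout over wild type came to -0.14 ± 0.08 (SE; 95% interval -0.30 to 0.03; unadjusted p = 0.105, edgeR). It was below 0 in the main analysis and all 16 alternatives, between -0.19 and -0.09, and its smallest unadjusted edgeR p among them was 0.027, without WT3 (adjusted p over the settings from 0.745). Without WT3, 709 of 16674 genes had an unadjusted edgeR p below 0.05.

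Foxp1 and Foxp2 encode forkhead repressors that can bind DNA as partners. Foxp1, on the minus strand of chr6:98925338-99522721, was at 208.5, 178.6, 175.9 and 230.8 CPM in WT1 to WT4 and at 225.4, 203.6, 213.9 and 165.5 CPM in KO1 to KO4. Foxp2, on the plus strand of chr6:14901349-15441977, was at 57.0, 53.6, 51.5 and 57.1 CPM in WT1 to WT4 and at 57.8, 55.7, 57.2 and 48.3 CPM in KO1 to KO4. KO4 had the lowest level of both genes, and the other 3 knockout libraries lay inside or just above the wild-type range. The genotype difference of Foxp1 was 0.03 ± 0.11 (log2, SE; 95% interval -0.22 to 0.27) and that of Foxp2 was -0.0019 ± 0.07 (-0.15 to 0.15). Without WT4 and KO4 that of Foxp1 was 0.19, with an unadjusted p of 0.0303 and an adjusted p of 0.537 in edgeR. In that setting 1364 of 16585 genes had an unadjusted edgeR p below 0.05, among them Foxp1, Zfp503 and Mef2c. This is a larger share than in the main analysis. Foxp2 varied least of the 10, by 1.20-fold between its highest and lowest library. Foxp1 shares 300 exon bases with Gm20696 on the same strand, which was at no more than 0.108 CPM in any library.

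Meis2, a homeodomain protein of the TALE class, lies on the minus strand of chr2:115863064-116065839. It was at 323.9, 273.1, 280.7 and 264.2 CPM in WT1 to WT4 and at 309.3, 260.8, 282.4 and 307.6 CPM in KO1 to KO4. Highest was WT1 and lowest KO2, and the genotypes overlapped throughout, with a log2 fold change of 0.02 ± 0.08 (SE; 95% interval -0.15 to 0.19). Zfp503, a zinc-finger protein of the developing striatum on the minus strand of chr14:21983959-21989601, was at 10.4, 11.7, 7.60 and 5.59 CPM in wild type and at 7.18, 7.58, 6.81 and 10.1 CPM in the knockout. WT2 was highest and WT4 lowest, so the wild-type libraries alone spanned the whole range. The log2 fold change of Zfp503 was -0.16 ± 0.22 (SE; 95% interval -0.66 to 0.34). Without WT4 and KO4 it was -0.47, with an unadjusted p of 0.0089 and an adjusted p of 0.381 in edgeR, and without WT2 it was 0.01.

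Mef2c, a MADS-box factor of activity-dependent transcription on the plus strand of chr13:83504034-83667080, was at 317, 406, 360 and 539 CPM in WT1 to WT4 and at 383, 521, 419 and 280.2 CPM in KO1 to KO4. The extremes were the 2 libraries that stood apart, WT4 at the top and KO4 at the bottom, 1.92-fold from each other. The genotype difference was -0.02 ± 0.22 in log2 (SE; 95% interval -0.53 to 0.49). Without these 2 libraries it turned to 0.29 (unadjusted p = 0.0404, adjusted p = 0.581, edgeR), a setting in which 1364 of 16585 genes had an unadjusted p below 0.05. KO4 also had the lowest summed cortical markers, and was the lowest library for 7 of the 8 of them. Of the 10 factors, 4 were lowest in KO4: Bcl11b, Foxp1, Foxp2 and Mef2c. In WT2, which had the highest cortical sum, Bcl11b was highest, and Foxp1, Foxp2 and Mef2c were not. The summed cortical markers in WT1 to WT4 were 986, 1456, 1181 and 1243 CPM, and in KO1 to KO4 they were 879, 1209, 1106 and 737 CPM. All 8 had a log2 fold change below 0, with a median of -0.20 and none past the test. Microglial markers, by contrast, had their highest sum in KO4 (835 CPM against 645 to 752 CPM in the other libraries). The part of these cells in the values of Mef2c, Bcl11b, Foxp1 and Foxp2 was not tested.

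**Figure D2:**
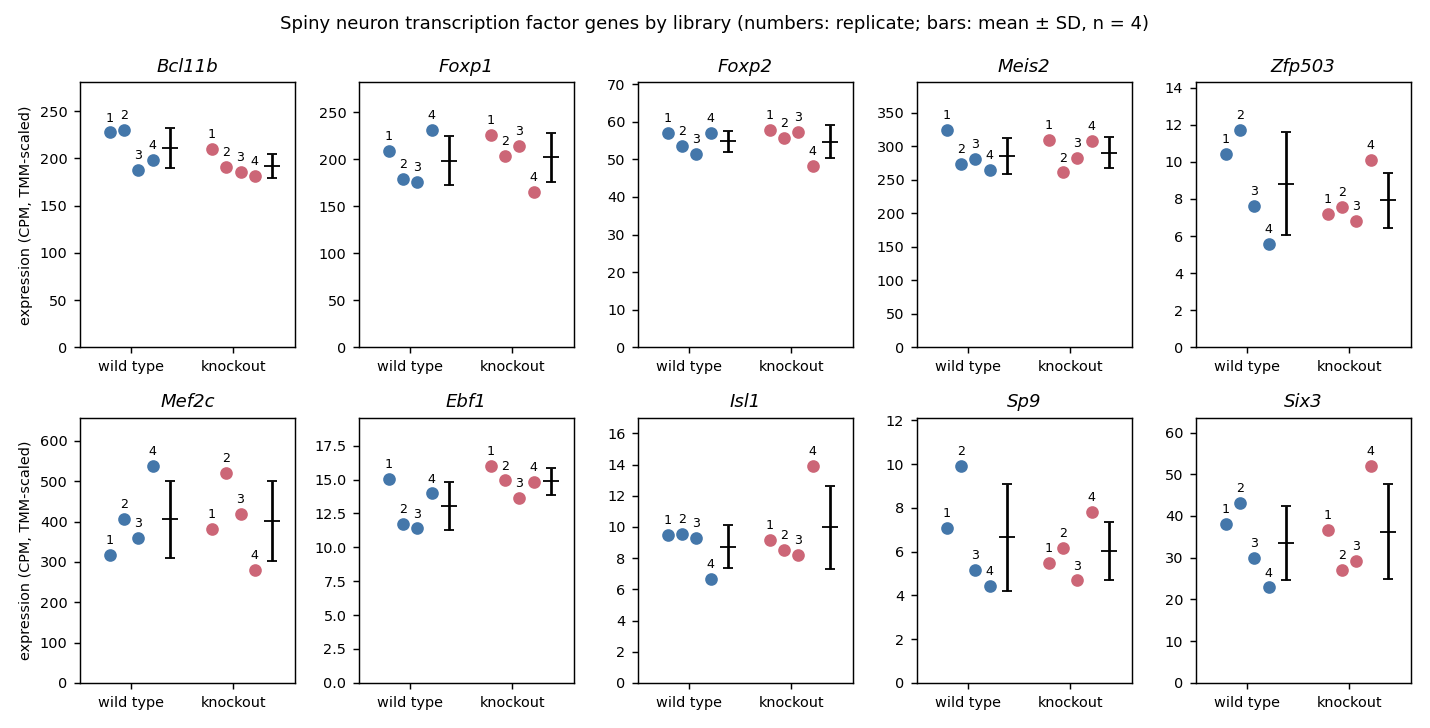
Level in CPM of each of the 10 factors in every library, wild type beside Dclk3 knockout, with a point per library and bars for the mean and SD of 4 libraries. The genotypes overlap in all 10 panels, and the knockout library with the highest Isl1 (13.9 CPM) and Six3 (52.1 CPM) is KO4.

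Of the direct-pathway factors, Ebf1 is a helix-loop-helix protein on the plus strand of chr11:44617317-45008091. It was at 15.0, 11.7, 11.4 and 14.0 CPM in WT1 to WT4 and at 16.0, 14.9, 13.7 and 14.8 CPM in KO1 to KO4. The knockout libraries were close together, and 3 of them lay below the highest wild-type library, WT1. With a log2 fold change of 0.19 ± 0.10 (SE; 95% interval -0.03 to 0.41; unadjusted p = 0.0844, edgeR), Ebf1 had the smallest p of the 10. The change was above 0 in the main analysis and all 16 alternatives, between 0.13 and 0.26. Its smallest unadjusted edgeR p among them was 0.0227, without WT1 (adjusted p = 0.952). Without WT1, 799 of 16681 genes had an unadjusted edgeR p below 0.05. WT2 and WT3, the lowest libraries for Ebf1, also had the lowest sums of 8 endothelial markers (291 and 280 CPM against 330 to 390) and of 8 mural markers (297 and 287 CPM against 321 to 357). Of the endothelial markers 7 of 8 and of the mural markers 6 of 8 had a log2 fold change above 0, with none past the test. Mural marker Vtn had a log2 fold change of 0.22 and Rgs5 of 0.17, with unadjusted p of 0.0108 and 0.0329 and adjusted p of 0.999 in edgeR. The part of vessel cells in the Ebf1 values was not tested.

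Isl1, a LIM homeodomain factor on the minus strand of chr13:116298281-116309689, was at 9.49, 9.54, 9.28 and 6.66 CPM in WT1 to WT4 and at 9.18, 8.55, 8.22 and 13.9 CPM in KO1 to KO4. The direction of the difference rested on replicate 4. WT4 was the lowest and KO4 the highest of the 8, while the other 3 knockout libraries lay below the other 3 wild-type ones. Knockout over wild type was 0.19 ± 0.18 in log2 (SE; 95% interval -0.21 to 0.59; unadjusted p = 0.313, edgeR), and -0.13 without WT4 and KO4. The 7 cholinergic interneuron markers, of which none was at 0, summed to 85.0, 63.8, 56.7 and 55.5 CPM in wild type and 72.7, 62.5, 59.5 and 99.5 CPM in the knockout. Their sum was thus also lowest in WT4 and highest in KO4, and 5 of the 7 had their highest level in KO4. Chat, which makes acetylcholine, had a log2 fold change of 0.26, and Lhx8 of 0.29, neither past the test. The 6 direct-pathway markers summed to 451 CPM in WT4 and 517 CPM in KO4, both within the range of 429 to 538 CPM of the other libraries. Within its genotype, however, WT4 had the lowest and KO4 the highest of these sums. Of the 6 markers, 2 were highest in KO4 and 1 was lowest in WT4. Tac1 was both, at 100 CPM in WT4 and 137 CPM in KO4. The part of cholinergic cells and of direct-pathway cells in the Isl1 values was not tested.

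Of the indirect-pathway factors, Sp9 is a zinc-finger protein of the Sp family on the plus strand of chr2:73271925-73284706. It was at 7.07, 9.94, 5.15 and 4.44 CPM in WT1 to WT4 and at 5.49, 6.18, 4.69 and 7.81 CPM in KO1 to KO4. WT2 was highest and WT4 lowest, and all knockout libraries lay between them. The genotypes differed by -0.14 ± 0.25 in log2 (SE; 95% interval -0.71 to 0.43). This became -0.45 without WT4 and KO4 (unadjusted p = 0.0641 and adjusted p = 0.644, edgeR) and 0.12 without WT2. Sp9 had the fewest counts of the 10, from 134 to 354 per library. It shares 270 exon bases with Cir1 on the opposite strand, which was at 4.21 to 6.07 CPM. The kit marks strand, but whether the counting used it is not stated, so reads of the shared bases could belong to either gene.

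Six3, a homeodomain factor on the plus strand of chr17:85613608-85629302, was at 38.1, 43.2, 30.0 and 22.9 CPM in WT1 to WT4 and at 36.6, 27.1, 29.2 and 52.1 CPM in KO1 to KO4. As for Isl1, the lowest library was WT4 and the highest KO4, 2.28-fold apart, the widest range of the 10. Its difference was 0.11 ± 0.27 in log2 (SE; 95% interval -0.52 to 0.74), and -0.26 without WT4 and KO4, with the direction turned. The antisense gene Six3os1, which shares 106 exon bases with Six3, was also lowest in WT4 (12.4 CPM) and highest in KO4 (24.7 CPM). Its other 6 libraries lay between 14.2 and 17.8 CPM, and reads in the shared bases could belong to either gene.

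The factors differed in how steady they were among striata of 1 genotype. For 5 of them, Six3, Sp9, Zfp503, Mef2c and Isl1, the within-genotype SD of log2 CPM was among the highest of the 11722 genes with a mean of at least 5 CPM. Their percentiles were 98.7, 98.5, 98.0, 97.9 and 96.0. Foxp1 was at percentile 86.6, Ebf1 at 73.9, Meis2 at 61.0, Bcl11b at 60.3 and Foxp2 at 42.6. The coefficient of variation of Sp9 was 36.9% in wild type and 22.0% in the knockout, and counting error at its lowest count of 134 comes to 8.64%. That of Six3 was 26.7% and 31.2%, with 755 or more counts in each library. Without WT4 and KO4 the percentiles were 95.8 for Six3, 98.8 for Sp9, 94.0 for Zfp503, 92.2 for Mef2c and 14.6 for Isl1. The high spread of Isl1 thus came from these 2 libraries, without which its coefficient of variation was 1.49% in wild type and 5.67% in the knockout, against 15.9% and 26.8% with them. Counting error at the lowest Isl1 count, 224, comes to 6.68%, above both values without WT4 and KO4. Those 2 values and percentile 14.6 therefore do not show that Isl1 was steady. Without them Foxp1 was at percentile 57.4 and Foxp2 at 14.1, and Bcl11b, Meis2 and Ebf1 were at 72.1, 69.0 and 85.4.

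Several of the factors varied together across libraries. Pearson r of log2 CPM over the 8 libraries was computed for all 45 pairs, with exact permutation p over 40320 pairings and Benjamini-Hochberg adjustment over the 45. It was positive in 24 pairs, and 4 passed an adjusted p of 0.05. How often pairs of other genes reach such r over the same 8 libraries was not tested. These counts therefore describe the factors and do not set them apart from other genes. Foxp1 and Foxp2 varied together, with r = 0.93 and rho = 0.93 (exact permutation p = 0.000223, adjusted 0.00558). Zfp503 and Sp9 did so with r = 0.95 and rho = 0.90 (exact permutation p = 0.000248, adjusted 0.00558). Isl1 and Six3 did so with r = 0.90 and rho = 0.95 (exact permutation p = 0.000595, adjusted 0.00893), although one is a direct-pathway and the other an indirect-pathway factor. Mef2c and Isl1 varied in opposite directions, with r = -0.85 and rho = -0.83 (exact permutation p = 0.0029, adjusted 0.0326). For rho the exact permutation p of these pairs, in the same order, was 0.00223, 0.00456, 0.00114 and 0.0154, and no pair passed after adjustment, the smallest adjusted value being 0.0502. The points share library depth, scaling and tissue composition.

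These relations were set against the libraries they rest on. Without the 2 libraries farthest from the median of the first gene, r stayed at 0.93 for Foxp1 and Foxp2 and for Zfp503 and Sp9, but was 0.79 for Isl1 and Six3 and -0.66 for Mef2c and Isl1. The first 2 pairs passed with each of the 8 libraries left out in turn. Isl1 and Six3 did not pass without WT4, KO2 or KO4 (adjusted p of 0.0595, 0.0506 and 0.096 by exact permutation). Mef2c and Isl1 passed only without WT2 or KO3, and adjusted p rose to 0.271 without WT4. Without both replicate 4 libraries r was 0.96, 0.94, 0.79 and -0.66 for the 4 pairs in the order above. No pair passed there, but the smallest exact permutation p that 6 libraries allow is 0.00139, which adjusts to 0.0625 for a lone pair, so the test says nothing about these pairs. Within genotypes, after removing each genotype's mean, r was 0.94, 0.95, 0.91 and -0.88, and the smallest adjusted p by exact permutation was 0.0781, which is also the smallest that 576 pairings allow a lone pair. The Isl1 and Six3 relation and the Mef2c and Isl1 relation thus rest in part on WT4 and KO4.

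**Figure D3:**
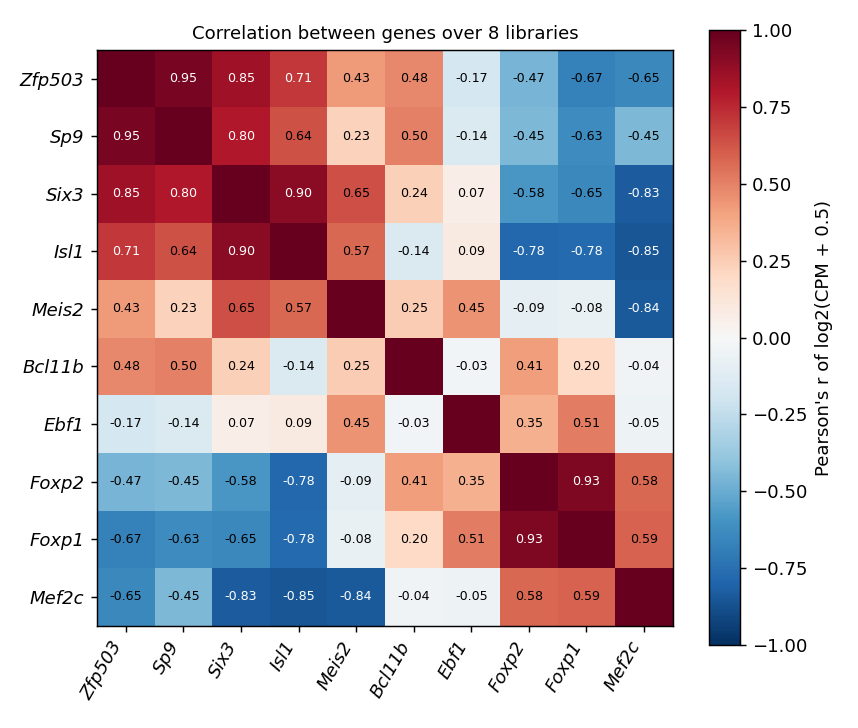
Pearson r of log2 CPM over the 8 libraries for each pair of the 10 factors. The strongest positive values are those of Zfp503 with Sp9 (0.95), Foxp1 with Foxp2 (0.93) and Isl1 with Six3 (0.90), and the strongest negative is that of Mef2c with Isl1 (-0.85).

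Set beside each other in percent of their own 8-library mean, Zfp503, Sp9, Six3 and Isl1 were all lowest in WT4. WT1 and WT2 were high for Zfp503, Sp9 and Six3, and KO4 was high for all 4. Zfp503 and Six3 had r = 0.85 (adjusted p = 0.0625 by exact permutation) and Sp9 and Six3 had r = 0.80 (adjusted p = 0.0816). Zfp503 and Isl1 had r = 0.71 (adjusted p = 0.155 by exact permutation) and Isl1 and Sp9 had r = 0.64 (adjusted p = 0.253), and none of these 4 pairs passed the threshold. The sum of 18 spiny effector genes did not follow this pattern. It was 11016, 8984, 9397 and 9643 CPM in WT1 to WT4 and 10598, 9175, 10365 and 9894 CPM in KO1 to KO4. Single effector genes differed from the sum. While 10 of the 18 were highest in WT1, 3 were highest in KO4 and 2 lowest in WT4. Penk and Tac1 were both lowest in WT4 (714 and 100 CPM) and highest in KO4 (981 and 137 CPM). The sum of thalamic markers, 242, 312, 193 and 213 CPM in wild type and 349, 212, 197 and 537 CPM in the knockout, was high in KO4, KO1 and WT2, and all 8 of these markers had their highest level in KO4. Its part in the values of these factors was not tested.

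**Figure D4:**
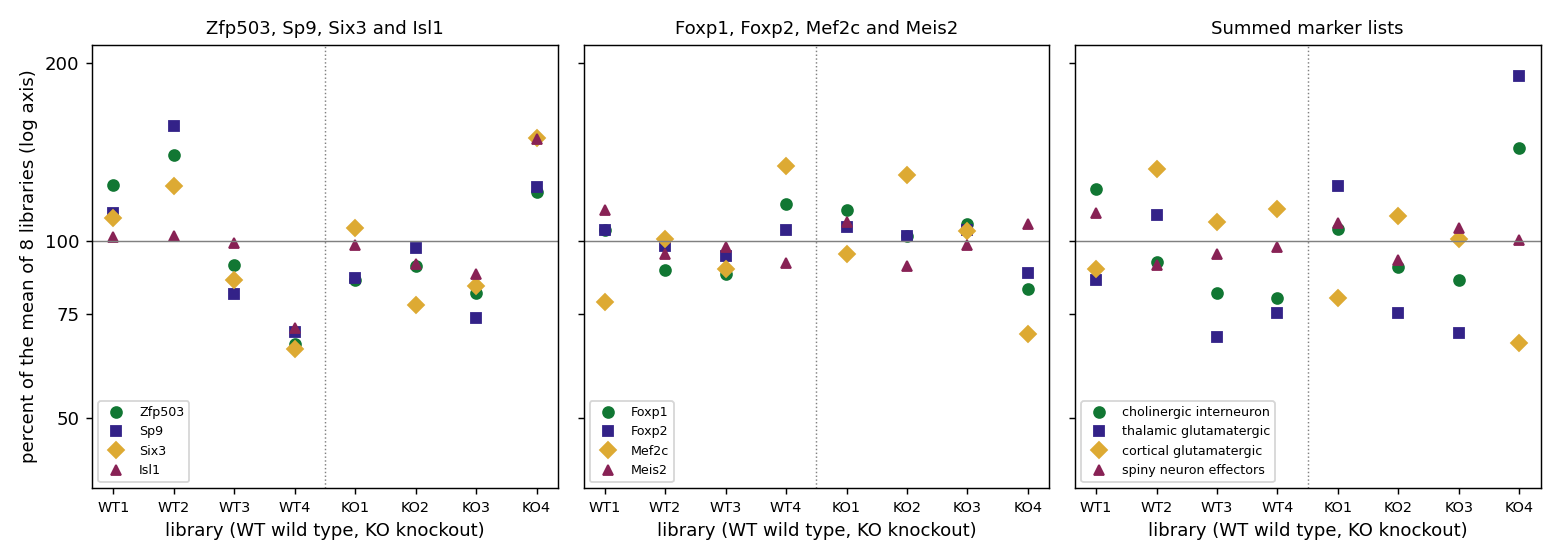
Level in each library in percent of the mean of the 8 libraries (log axis), for Zfp503, Sp9, Six3 and Isl1, for Foxp1, Foxp2, Mef2c and Meis2, and for summed marker lists. The first 4 factors are lowest in WT4 and high in KO4, while the spiny effector sum is highest in WT1 (11016 CPM) and lowest in WT2 (8984 CPM).

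The sequences upstream of these 4 factors are shown because they make up the pairs Zfp503 and Sp9, and Isl1 and Six3, that varied together among libraries. They come from the RefSeq promoter table on GRCm38.p6, whose windows hold 250 bases before each transcript start. They are printed up to the first base of an annotated exon of the same gene, written 5′ to 3′ on the gene's strand. Exons of other genes were not checked. Capitals mark matches, on either strand, to the CCAAT box (CCAAT), the GC box (GGGCGG) and the TALE homeodomain site (TGACAG), the motifs found there of 7 searched. The windows are chr2:73271676-73271924 (plus strand) for Sp9, chr14:21989602-21989851 (minus) for Zfp503, chr17:85620584-85620833 (plus) for Six3 and chr13:116309690-116309938 (minus) for Isl1. The Six3 window lies inside the gene's GENCODE span, which begins at an earlier start.
Sp9: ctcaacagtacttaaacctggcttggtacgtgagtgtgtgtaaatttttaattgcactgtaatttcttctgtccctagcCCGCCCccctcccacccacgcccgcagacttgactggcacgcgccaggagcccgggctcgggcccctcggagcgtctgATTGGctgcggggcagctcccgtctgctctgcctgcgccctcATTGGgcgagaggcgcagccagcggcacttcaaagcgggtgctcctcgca
Zfp503: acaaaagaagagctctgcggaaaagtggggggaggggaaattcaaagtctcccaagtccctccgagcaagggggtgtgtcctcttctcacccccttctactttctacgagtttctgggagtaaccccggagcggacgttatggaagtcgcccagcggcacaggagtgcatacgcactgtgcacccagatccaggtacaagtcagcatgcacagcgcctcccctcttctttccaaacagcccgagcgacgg
Six3: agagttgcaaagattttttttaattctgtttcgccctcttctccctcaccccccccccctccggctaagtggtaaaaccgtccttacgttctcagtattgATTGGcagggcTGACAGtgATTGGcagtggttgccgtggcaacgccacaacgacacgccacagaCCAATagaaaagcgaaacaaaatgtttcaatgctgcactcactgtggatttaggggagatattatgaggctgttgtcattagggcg
Isl1: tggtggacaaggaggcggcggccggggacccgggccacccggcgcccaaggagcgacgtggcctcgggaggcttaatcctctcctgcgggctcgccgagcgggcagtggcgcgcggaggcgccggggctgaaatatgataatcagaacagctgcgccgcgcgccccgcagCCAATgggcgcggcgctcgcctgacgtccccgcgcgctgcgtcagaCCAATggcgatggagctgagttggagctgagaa

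Six3 held 3 CCAAT matches, Sp9 2, Isl1 2 and Zfp503 none. The counts that follow were made on the full 250 bases of each window, for the factors and for all genes alike, and some of these windows include annotated exon bases that are not printed. CCAAT matches were present in 7 of the 14 windows of the 9 factors with an entry, and in 33.8% of all 32851 windows. This motif was added after the sequences had been read, so its count is a description only. The GC box was found in the Sp9 window and in 4 of the 14 windows, against 32.7% of all windows, and the TALE site in the Six3 window and in 2 of the 14, against 15.9%. The forkhead motif TGTTTAC was in none of the 14 windows and in 3.17% of all. The MEF2 motif TATTTTTA was in 1 of the 14 and 2.45% of all, the homeodomain motif TAATTA in 2 and 4.84%, and the EBF motif CCCNNGGG in 2 and 11.8%. Sp9 and Zfp503, the pair with the highest r, shared no match to any motif searched. The windows of Isl1 and Sp9 had 71.1% and 62.2% G and C, Zfp503 57.2% and Six3 48.8%, against a median of 52.4% over all windows.

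Paralogs of the 10 factors were read from a list of 22 genes, of which 16 were tested. None passed the test, with 7 above and 9 below 0 and a median log2 fold change of -0.01. Foxp4, which can pair with Foxp1 and Foxp2, was at -0.17 (unadjusted p = 0.0443) and Mef2d at -0.15 (unadjusted p = 0.0496), both with an adjusted p of 0.999 in edgeR. Bcl11a, the close relative of Bcl11b, was at -0.16 and Sp1 at 0.13.

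Other transcription factors of the striatal lineage gave 20 tested genes of 22, with 6 above and 14 below 0, a median of -0.04 and none past the test. Over all tested genes, 49.5% were above 0. Tshz1 was at -0.10, Sp8, the close relative of Sp9, at 0.34, and the immediate early gene Egr1 at -0.27. Of 18 effector genes that spiny neurons use for dopamine signalling and neuropeptides, 14 were above and 4 below 0, with a median of 0.03 and none past the test. The neuropeptide gene Tac1 was at 0.16 and the phosphatase gene Ptpn5 at 0.10. The 6 direct-pathway markers had a median of -0.06 and the 5 tested indirect-pathway markers, which include Sp9, one of 0.0045. Gpr52 was not analysed here.

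Markers of the other cell types the tissue could hold were read in the same way, and none passed the test or was at 0 in all libraries. The median log2 fold change was 0.20 for 7 cholinergic interneuron markers (6 above 0), 0.06 for 9 GABAergic interneuron markers (6 above), -0.20 for 8 cortical markers (0 above) and 0.41 for 8 thalamic markers (8 above). It was -0.06 for 8 neuroblast and progenitor markers (1 above), 0.09 for 9 microglial markers (9 above), 0.23 for 8 endothelial markers (7 above) and 0.09 for 8 mural markers (6 above). Astrocyte markers had a median of 0.15 (7 of 8 above), oligodendrocyte markers one of 0.21 (8 of 8 above) and choroid plexus markers one of -1.66 (0 of 6 above), whose sum was 2911 CPM in WT4. Unadjusted edgeR p was below 0.05 for 4 of 8 astrocyte markers (Gjb6, Aldh1l1, Slc1a3 and Slc4a4, the smallest being 0.0011 for Gjb6 at 0.41), 2 of 8 oligodendrocyte markers, 2 of 8 mural, 1 of 8 endothelial and 1 of 9 GABAergic interneuron markers, beside 3.76% of all genes, all with an adjusted p of 0.999. The 10 factors were split evenly, with 5 above and 5 below 0, and 49.5% of all tested genes were above 0. Markers of 1 cell type can vary together, so the counts above 0 are not counts of independent results.

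Outside the 10 factors, the tested gene with the most similar profile over the 8 libraries was sought among the 11352 genes with a mean of at least 5 CPM that are not predicted or unnamed gene models, by Pearson r of log2 CPM, as a description. Isl1 was closest to Rimkla (r = 0.99), Six3 to Fam20c (0.99), Zfp503 to Mospd3 (0.98) and Sp9 to Grk5 (0.97). Ebf1 was closest to Slc44a1 (0.98), Mef2c to Tmem132d (0.98), Foxp1 to Abcf2 (0.97), Foxp2 to Plcl2 (0.97), Meis2 to Prkch (0.97) and Bcl11b to Lingo3 (0.94). Each factor had a different closest gene. These values are the maxima of a search over many genes and carry no p.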

How the data were processed

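RNA was measured in 8 striata, 4 wild type and 4 Dclk3 knockout. Libraries were poly(A)-selected with a stranded kit, per the labels' protocols. The authors deposited raw read counts per Ensembl gene, in 1 table whose header marks the columns as raw. Per the submitters' processing notes, bcl2fastq 2.17.1.14 and the mouse build mm10 were used. No aligner, counter, annotation or strand setting was given in the sources used here.

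Symbols came from GENCODE on GRCm38 (31292 identifiers matched, 125 did not). Genes were kept by filterByExpr with a minimum count of 10, scaled by TMM and fitted with edgeR 4.0.16 (R 4.3.3), robust quasi-likelihood with genotype as the only term, with two-sided p-values adjusted by Benjamini-Hochberg over 16511 genes. The standard errors and intervals derive from that fit. Correlations used log2 of CPM plus 0.5. The edgeR steps were tested on simulated data. Pairs of libraries of 1 genotype differed by 7.07 to 32.1 chi-square per degree of freedom, so none was a copy. WT2 differed by 17.8 from WT1 and 19.9 from WT3, which differed by 8.01 from each other. KO4 differed by 10.5 to 17.5 from the other knockout libraries, and WT4 by 24.1 to 32.1 from the other wild-type ones. A count of 0 would allow up to 3 counts, 0.0822 to 0.123 CPM, and such limits cover counting error only. Alternatives were DESeq2 1.42.0, limma-voom (limma 3.58.1), other scalings and filters, a replicate block, and libraries left out.

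The 10 factors and the 16 companion lists were chosen with earlier results of these data known. Named genes are Dclk3, the 10 factors, the up to 4 genes of smallest p in each list and the closest gene of each factor. Some genes that this rule names are not reported here. Ppp1r1b, Penk, Six3os1, Cir1 and Gm20696 are named as markers or overlapping genes.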

Additional observations from a re-analysis of the deposited data

Results flagged for a closer look

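In groups of 4 libraries, 54 sets of values (the 10 factors, Dclk3 and the summed lists, by genotype) were checked for a single library far from the others, and 5 showed one; chance gives about 1 in 20. Isl1 was low in WT4, at 6.66 CPM against 9.28 to 9.54 CPM in the other wild-type libraries. Isl1 was high in KO4, at 13.9 CPM against 8.22 to 9.18 CPM in the other knockout libraries. The summed direct-pathway markers were low in KO2, at 429 CPM against 504 to 517 CPM. The summed mural markers were low in KO3, at 322 CPM against 352 to 357 CPM. The summed choroid plexus markers were high in WT4, at 2911 CPM against 40.0 to 89.4 CPM.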

How the results depend on the processing

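With the 16 alternatives to the edgeR analysis, 0 of the 10 factors passed the threshold. The count over all genes was 1, 3 with DESeq2, 3 without replicate 4 of either genotype and 1 to 2 with single libraries left out. With no filter on low counts Dclk3 was at -2.07 with an adjusted p of 0.0647 in edgeR, and the 1 gene called was Malat1. Bcl11b and Ebf1 kept their direction throughout. Foxp2 turned to 0.0025 with upper-quartile scaling, 0.0040 with limma-voom and 0.074 without replicate 4. With limma-voom Meis2 turned to -0.040, Mef2c to 0.14 and Six3 to -0.029. Without replicate 4 Meis2 turned to -0.042, Mef2c to 0.29, Isl1 to -0.13 and Six3 to -0.26. With single libraries left out, log2 fold changes ran from -0.030 (without KO1) to 0.11 for Foxp1, -0.031 to 0.053 (without KO4) for Foxp2, -0.012 (without WT4) to 0.088 for Meis2, -0.33 to 0.013 (without WT2) for Zfp503, -0.17 to 0.15 (without WT4) for Mef2c, -0.015 (without KO4) to 0.28 for Isl1, -0.30 to 0.12 (without WT2) for Sp9 and -0.12 (without KO4) to 0.26 for Six3. Fewer libraries entered these fits, and for the other settings the cause was not tested. Of the 45 correlated pairs, 4 passed, against 0 with genotype means removed, 0 without replicate 4 and 2 to 5 with single libraries left out, the last 2 settings having been added after the data were seen, as was the spread without replicate 4. Both zeros come from designs in which a lone pair cannot pass (smallest adjusted p 0.0781 and 0.0625 by exact permutation). Same-numbered libraries did not deviate together (r from -0.28 to 0.05, against -0.16 to 0.24 for different numbers). No pairing by number was seen, but so few pairs cannot exclude that such libraries were handled together. With a replicate block 1 gene and 0 of the 10 factors passed, and Dclk3 was at -2.06. Of the 10 factors, depth limits Sp9, Zfp503 and Isl1 most, with counting error of 8.64%, 7.56% and 6.68% at their lowest count. With all 8 libraries, these are below their coefficients of variation in both genotypes.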
